A study of Lymantria dispar dispar and Lymantria dispar asiatica with 30 samples.

Results

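The genes described here are the 150 of 19654 gene models of the spongy moth *Lymantria dispar* whose transcript levels in female pupae dipped most on day 5 after pupation. For each gene the deposited expression values were averaged over the 6 libraries of a day, 3 of each strain, and the dip is the lowest of the other 4 day means minus the day 5 mean. The 150 genes with the largest dip were taken, so they were chosen by their measured day means, and their low level on day 5 is given as a description without a test. The values are variance-stabilised counts (VST), a log-like scale on which the size of a doubling depends on the count. The dip ran from 6.12 VST units (Lda.42304) to 1.03, with a median of 1.45, against a median of −0.45 over all genes. The members just inside the threshold were Lda.39594 (1.0332), Lda.24372 (1.0310) and Lda.5461 (1.0270), and the genes just outside it were Lda.2631 (1.0268), Lda.19818 (1.0214) and Lda.10665 (1.0185), so nothing in the dip itself separates the list from the next genes.

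The samples were 30 whole female pupae, 1 per library, with 3 per strain on each of days 1, 3, 5, 8 and 11. Asian spongy moths (ASM), whose females can fly, came from a colony in its 34th laboratory generation, labelled RM, on a diet with 0.21 g of iron phosphate (FePO4) per litre. European spongy moths (ESM), whose females do not fly, came from a colony in its 32nd generation, labelled CT, on 0.13 g per litre. The labels give no other treatment. Strain, colony and diet cannot be told apart, the reads of both strains were aligned to a draft ASM genome, and in a whole pupa fewer cells of a type and less RNA per cell cannot be told apart.

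In the pupa of a moth, pulses of the steroid hormone 20-hydroxyecdysone pace the change from larva to adult. Larval tissues are broken down while wings, flight muscle, eyes, cuticle and ovaries of the adult are built, and sets of genes are switched on and off in turn. Genes of larval tissues, of the moulting cuticle and of adult structures can therefore differ in the phase of pupal life in which they are transcribed. The Lda identifiers carry no names in the expression table. Descriptions were taken from the study's lists of differentially expressed genes and flight candidates, which are not its whole annotation. Of 620 measured genes described there, 2 were members (0.323%, against 0.763% of all genes). Thus 148 of the 150 are known here by their identifier alone, and no sequence was used.

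Read counts were recovered from the deposited values and divided by each library's size factor. These normalised counts are the levels given below, and they compare a gene with itself between pupae, not genes with each other. VST units are not log2 units. Doubling a gene from 10 normalised counts added 0.98 VST units, from 100 it added 1.65, from 1000 it added 1.13 and from 10000 it added 0.61, so the rule favours genes of middle level. On log2(normalised count + 1) all 150 members still dipped on day 5, but the rule would keep 90 of them. Libraries held 2638192 to 10786409 reads assigned to genes, and all totals and shares of reads given here are of such reads. The ESM pupae of day 5 were the shallowest group, with a median of 2801724 reads against 5531781 for the ASM pupae of that day. A library with no read of a gene allows up to 3 reads of it. The median SD among the 3 pupae of a group was 0.43 to 0.85 VST units for members and 0.28 to 0.44 for all genes. The 4 genes that the study used as references for qPCR had no dip, since each had a lower mean on another day: the dip was −0.43 for actin, −0.45 for gamma-tubulin, −0.56 for GAPDH and −0.92 for Ef1g.

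Most members fell from a high level just after pupation and then climbed back. Over the 150 genes the median normalised count started at 217 on day 1 and came down to 100.5 on day 3 and 23.9 on day 5. It was up again at 98.7 on day 8 and reached 156 by day 11. Day 1 was the highest day for 83 members, day 11 for 42, day 8 for 21 and day 3 for Lda.25730, Lda.10677, Lda.28699 and Lda.39594. The lowest of the other days was day 3 for 83 members, day 8 for 48, day 11 for 18 and day 1 for Lda.3399. The fall from day 3 to day 5 had a median of 1.68 VST units and the rise from day 5 to day 8 one of 1.97, and the fall exceeded the rise in 56 members. In normalised counts, the lowest of the other day means was at least 2-fold above the day 5 mean in 97 members, at least 5-fold in 26 and at least 10-fold in 12. Its median ratio was 2.44 over the 144 members with a ratio. The 6 members without one had 1 to 3 reads in the 6 day 5 libraries together.

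The dip was present in most members within each strain. Day 5 had the lowest of the 5 day means in 145 members in ASM and in 141 in ESM, and in 136 in both. The 5 exceptions in ASM were lowest on day 8 (Lda.34041, Lda.10677, Lda.10540, Lda.38542 and Lda.3086). Of the 9 exceptions in ESM, 7 were lowest on day 3, among them Lda.34043, Lda.6615 and Lda.6616, and Lda.11019 and Lda.6370 were lowest on day 11. All 6 pupae of day 5 lay below the other 24 in 30 members, where the same held for 0.198% of the genes tested. The rule used these levels, so nothing is read from that count. In the plot of time courses the median line of both strains has its low on day 5.

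**Figure D1:**
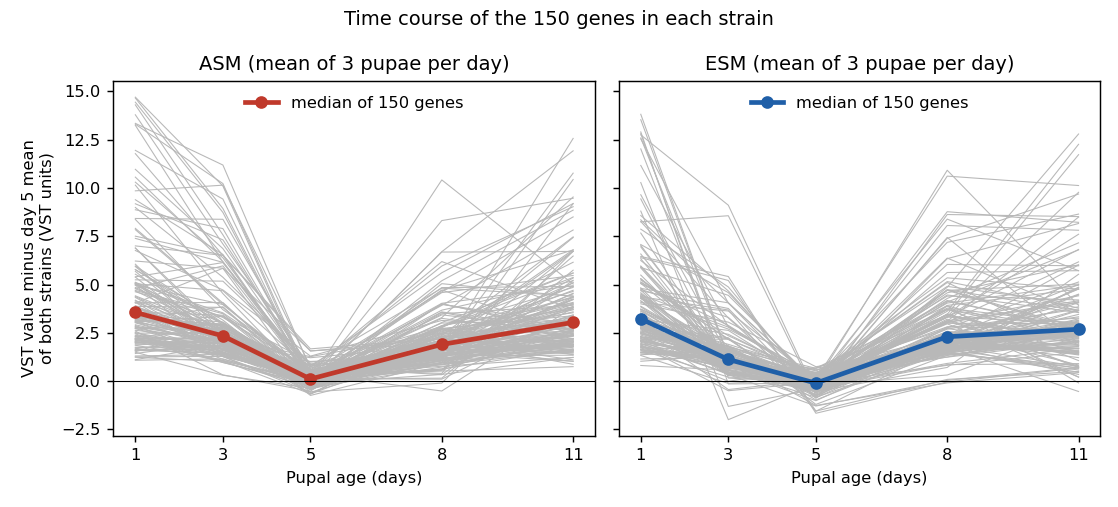
Time course of the 150 genes in ASM (left) and ESM (right). The horizontal axis is the age of the pupa in days and the vertical axis the mean VST value of 3 pupae minus the gene's day 5 mean over both strains, in VST units. Grey lines are single genes and the coloured line is their median. The medians are lowest on day 5 in both strains, and on day 3 the ESM line, seen from the same zero, lies below the ASM line.

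A small group of members was very abundant just after pupation and far lower on day 5. In 11 members the day 1 mean exceeded 10000 normalised counts: Lda.37581, Lda.34041, Lda.42304, Lda.15968, Lda.6615, Lda.24107, Lda.7523, Lda.34043, Lda.9732, Lda.24093 and Lda.6616. Together they took 10.9 ± 3.38% (SD, n = 3) of all reads assigned to genes in ASM pupae of day 1 and 5.43 ± 2.30% in ESM pupae. On day 5 they took 0.00724 ± 0.00680% in ASM and 0.00360 ± 0.00121% in ESM. The share then rose to 0.203 ± 0.0702% in ASM and 0.11 ± 0.0116% in ESM on day 11, so the return was to a level far below that of day 1. The other 139 members changed much less. They took 0.908 ± 0.0174% (ASM) and 0.951 ± 0.151% (ESM) of reads on day 1, 0.15 ± 0.0185% and 0.119 ± 0.0124% on day 5, and 1.16 ± 0.172% and 1.13 ± 0.132% on day 11.

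**Figure D2:**
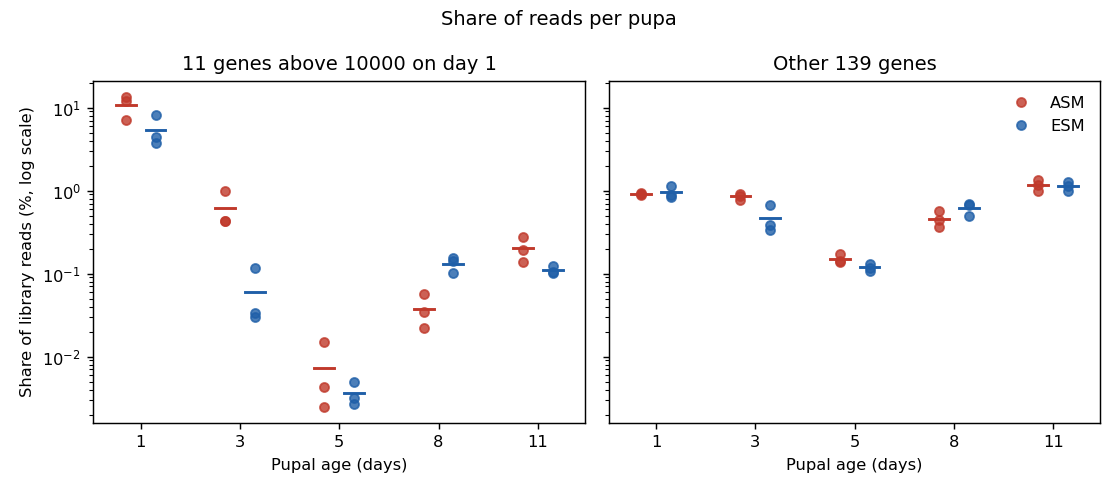
Share of each library's reads assigned to genes in the 11 members above 10000 normalised counts on day 1 (left) and in the other 139 members (right), by age of the pupa in days. The vertical axis is a percentage on a log scale, each point is 1 pupa and the short lines are group means (n = 3). The left-hand genes take 3.79 to 13.6% of reads on day 1 and at most 0.015% on day 5. On day 3 the ASM pupae lie above the ESM pupae in both panels, and on day 8 they lie below them in the left panel and overlap with them in the right panel.

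Lda.42304 had the largest dip, 6.12 VST units. On day 1 it stood at 125643, 110177 and 58226 normalised counts in the 3 ASM pupae and at 46605, 28178 and 29494 in the 3 ESM pupae. On day 5 it was down to 24.3, 44.8 and 32.3 in ASM and 33.7, 29.1 and 40.7 in ESM, with no overlap between these 6 pupae and any other. Its day 1 mean was 1944 times its day 5 mean, and the day 8 mean 44.1 times. The days beside the dip differed between the strains. On day 3 the ASM pupae had 7816, 5337 and 3136 and the ESM pupae 80.2, 62.8 and 467. On day 8 they had 473, 807 and 1282 in ASM and 2127, 2148 and 2205 in ESM. Thus every ESM pupa was below every ASM pupa on day 3 and above every one on day 8. On day 11 the strains overlapped, with 1108, 284 and 1948 in ASM and 303, 533 and 693 in ESM. Counts above 50000 reads are approximate, since the scale is nearly flat there.

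Lda.15968 had the second largest dip (5.69) and the same course. It stood at 165736, 88598 and 33975 in ASM and 51125, 15788 and 21178 in ESM on day 1. On day 5 all 6 pupae held 0.995 to 6.75, a few reads per library. On day 3 ESM pupae had already come down to 3.86, 3.44 and 52.2, while ASM pupae held 2318, 742 and 740.0. Of the 3 ESM pupae, replicate 3 was the highest in this gene and in Lda.42304. On day 8 the order was the reverse, with 1623, 1087 and 1612 in ESM and 61.3, 347 and 399.9 in ASM.

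Lda.24093, Lda.24107 and Lda.7523 followed the same pattern at lower levels. Lda.24093 was at 0 in all 3 ESM pupae of day 5 and at 2.03, 0.995 and 0 in ASM, too few reads for a ratio. On day 8 it had returned to 391, 256 and 491 in ESM but stood at 5.25, 54.6 and 47.5 in ASM. Lda.24107 held 1139, 169 and 167 on day 3 in ASM and 7.73, 10.3 and 44.3 in ESM, beside 0 to 21.9 over the 6 pupae of day 5. Lda.7523 held 807, 132 and 135 in ASM and 3.86, 6.02 and 30.1 in ESM on day 3, beside 4.16 to 17.9 on day 5. In both genes the ESM pupae of day 3 were therefore in or near the range of day 5 while the ASM pupae were above it.

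Some of the abundant genes stayed low in ASM through day 8. Lda.34041 held 77, 4.97 and 20.6 in ASM on day 5 and 7, 21.3 and 43.7 on day 8, which overlap, whereas ESM rose from 11.2, 6.24 and 12.4 to 1089, 115 and 451. On day 11 both strains were back at 767 to 2108. Lda.34043 and Lda.9732 reached counts near 0 on day 3 in ESM and on day 8 in ASM. Lda.34043 held 1241, 207 and 350.3 in ASM on day 3 and 0, 0 and 1.58 in ESM, and then 0, 2 and 10.7 in ASM on day 8 and 48.7, 17.5 and 31.6 in ESM. For Lda.9732 the day 3 counts were 1077, 203 and 273 in ASM and 1.93, 0 and 1.58 in ESM, and the day 8 counts 0, 0.665 and 3.06 and 44.1, 8.77 and 33. The most abundant of all members on day 1, Lda.37581, had 301328, 172485 and 77177 in ASM and 157521, 31956 and 44343 in ESM then, and 10.4 to 36 over both strains on day 5. It came back only to 28.6 to 557 by day 11.

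The remaining genes with the largest dips were less abundant on day 1. Lda.13539 (5.31) kept a measurable level throughout. It fell from 1476 to 2186 on day 1 to 43.7 to 70.9 on day 5 and rose to 287 to 1039 on day 8, so the 6 pupae of day 5 were apart from all others. Lda.10681 differed in its end point: it held 58.2 to 188 on day 1 and 0 to 10.1 on day 5, and on day 11 reached 13775, 6658 and 2039.7 in ASM and 9469, 4778 and 6371 in ESM, its highest day by far. Lda.37625 held 1772 to 4399.8 on day 1, 20.8 to 88.1 on day 5 and 303 to 718 on day 11. On day 3 it was still high in ASM, at 3833, 4419.6 and 2354, while the ESM pupae held 253, 219 and 1874, so only ESM replicate 3 was near the ASM pupae.

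Lda.31948 and Lda.31949, which have adjacent identifiers, were low together. Lda.31948 held 353, 111 and 97.8 in ASM and 2.9, 5.16 and 26.9 in ESM on day 3, and 4.05, 2.98 and 1.96 and 0, 0 and 2.26 on day 5. On day 8 it held 14, 21.3 and 15.3 in ASM and 85.2, 58.5 and 41.5 in ESM. Lda.31949 was at 0 in the 3 ESM pupae of day 5 and at 1.01, 0.995 and 3.92 in ASM, and its counts on day 1 were 56.3 to 210.4. In Lda.31948 the ASM pupae were thus above the ESM pupae on day 3 and below them on day 8, as in the abundant genes.

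Lda.30566 had no read in any of the 6 pupae of day 5. Its day 3 mean was 87.6, at least 20.7-fold higher than 3 reads per day 5 library would allow, and its day 8 mean 21.7, at least 5.15-fold higher. The day 3 mean came from ASM, with 359, 112 and 48.9, while ESM pupae held 0.966, 0 and 4.75. Lda.39939 was the other member with no read on day 5, but its levels elsewhere were low, with day means of 4.79 on day 3 and 32.7 on day 11. Lda.23963 held 0 to 2.25 on day 5 and spread widely on day 1, from 89.5 to 4174. Lda.22639 fell from 367 to 2739 on day 1 to 48.9 to 115 on day 5 and stood at 213 to 374 on day 8, with both strains overlapping on every day.

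**Figure D3:**
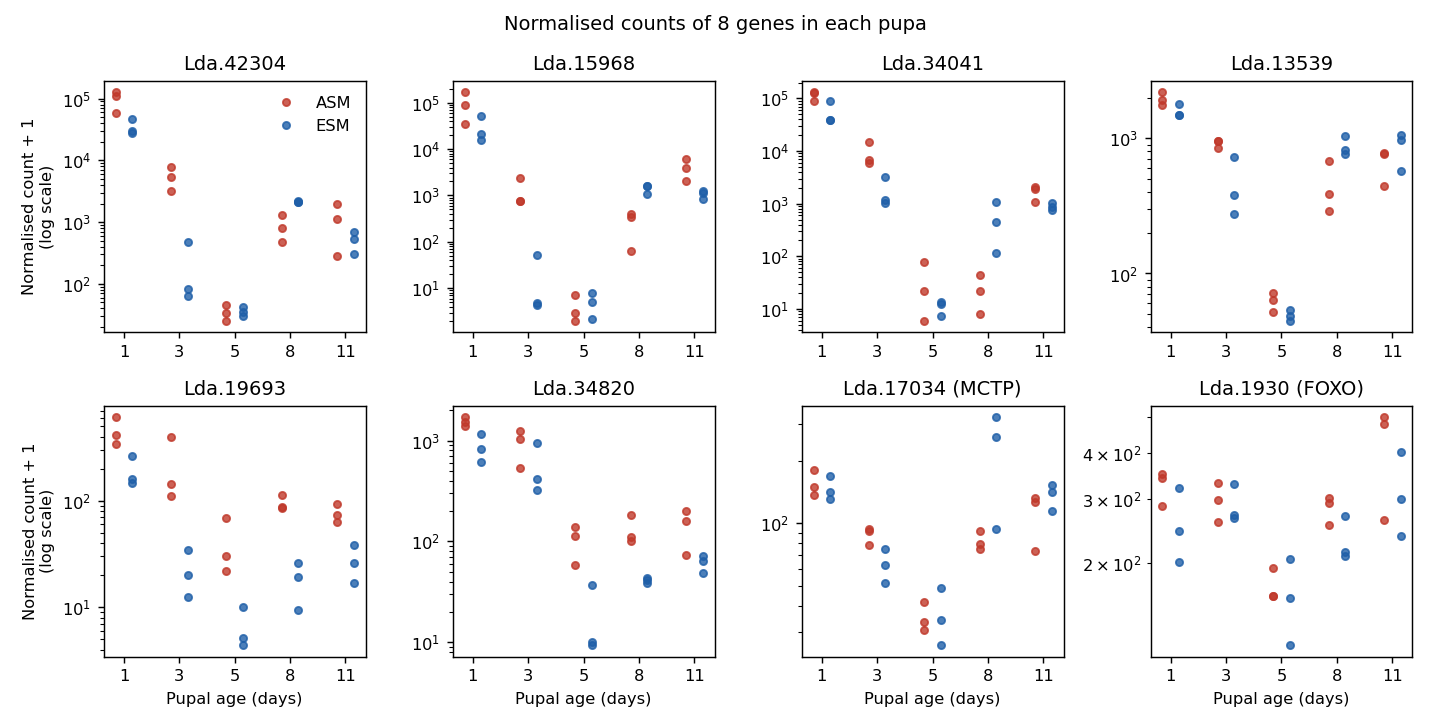
Normalised counts of 8 members in each pupa. The horizontal axis is the age of the pupa in days, and the vertical axis is the normalised count plus 1 on a log scale that differs between panels. Each point is 1 pupa (ASM red, ESM blue, 3 per strain and day). In Lda.42304 and Lda.15968 the ESM pupae lie below the ASM pupae on day 3 and above them on day 8, and in Lda.19693 they lie below on every day.

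The 2 members with a description were among the moderate ones. Lda.1930 is annotated as forkhead box protein O (FOXO), a transcription factor that insulin signalling keeps out of the nucleus and that in *Drosophila* limits growth when nutrients are short. Its dip was 1.06 VST units, near the threshold. On day 5 it held 162, 162 and 194 in ASM and 205, 160.3 and 119 in ESM. On day 3 it held 258, 329.9 and 297 in ASM and 266, 327 and 271 in ESM, and on day 8 291, 300.1 and 254 and 208, 214 and 269. Its day 5 mean was thus lower than those of days 3 and 8 by a factor of 1.75 and 1.53, and the strains overlapped on every day. Its strain difference over days was not called (0.39 ± 0.17 VST units, SE, adjusted p = 0.0917). Lda.17034 is annotated as a multiple C2 and transmembrane domain-containing protein (MCTP), a membrane protein of the endoplasmic reticulum that binds calcium and in *Drosophila* acts at synapses. It held 29.4, 40.8 and 32.3 in ASM and 24.7, 33.3 and 47.4 in ESM on day 5, after 130.3 to 180.1 on day 1. On day 8 ASM pupae had 91, 73.9 and 78.1 and ESM pupae 324, 92.6 and 261, with every ESM pupa higher (-2.10 ± 0.50 VST units, SE, ASM minus ESM, adjusted p = 0.0103). On day 3 the ASM pupae were the higher ones, at 90.7, 77.8 and 93 in ASM and 50.2, 62 and 74.4 in ESM, and this difference was not called (adjusted p = 0.447).

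Identifiers that follow each other may belong to neighbouring genes, split models of 1 gene or copies that share reads, which cannot be told apart without coordinates. In 11 pairs of members the identifiers lay within 5 of each other. Lda.6615 and Lda.6616 kept a near-constant ratio, between 4.30 and 5.43 over the day means, so they may not be independent, though each counts as a member. In Lda.35167 and Lda.35169 the ratio was also steady, between 0.149 and 0.165. Lda.34041 and Lda.34043, by contrast, went apart, with a ratio of 3.85 on day 1 and 21.1 on day 5. The ratio of Lda.10677 to Lda.10681 shifted most, from 18.7 on day 1 to 0.0271 on day 11, although both were lowest on day 5.

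The strains were compared next. The rule used the day means over both strains with equal weight and not the difference between them. A gene can still pass the rule through 1 strain: 9 members had no dip within ESM and 5 had none within ASM, so each count is also given for the 136 members that dipped in both. A dip within a strain only had to be above 0. In Lda.9732 the ASM means were 8.48 VST units on day 3, -0.151 on day 5 and -0.108 on day 8. Its ESM means were -0.101, -0.363 and 2.79. Day means over both strains can thus favour genes whose strain difference turns round between days 3 and 8. Calls on these days and for the interaction are therefore not free of the rule, also among the 136. limma was fitted to the 19652 genes detected in 3 or more libraries, and a gene was called at a Benjamini-Hochberg adjusted p under 0.05 over all of these genes. Beside each count of a comparison stands the share of all genes tested that was called. Counts by sign, by overlap or of calls shared between comparisons have no such share. The genes tested were not matched to the members in level. The median of the mean normalised count was 144 over the members and 40.4 over all genes. How far the shares depend on level was not tested.

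On day 3 the members were higher in ASM. The comparison called 44 of 150 members (29.3%), all of them higher in ASM, whereas 8.57% of all genes tested were called, 3.96% as higher and 4.61% as lower in ASM. The median ASM minus ESM difference was 1.30 VST units over the members and 0.0047 over all genes tested, and 132 members had a higher ASM mean. Among the 44 the difference ran from 1.278 to 9.09 VST units with a median of 2.63, and in 40 of them all 3 ASM pupae lay above all 3 ESM pupae. How often this held over all called genes was not counted, so nothing is read from the 40. Of the 136 members that dipped in both strains 36 were called (26.5%), all higher in ASM. Of the 14 that dipped in 1 strain only, 8 were called (57.1%), also higher in ASM. The rule used the day 3 means, so none of these shares is free of the rule. The 11 abundant genes contributed 10 of the 44, with Lda.34041 as the exception (2.08 ± 0.89 VST units, SE, adjusted p = 0.155). The other 34 came from the 139 less abundant members. The largest differences were those of Lda.34043 (9.09 ± 0.70, adjusted p = 5.34e-09) and Lda.15968 (8.83 ± 0.86, adjusted p = 2.85e-07). The count fell to 26 without ESM replicate 1 of day 3, 25 without ESM replicate 2, 25 without ASM replicate 1 and 29 without ASM replicate 2, and every call was still higher in ASM. ESM replicate 3 of day 3 stood nearer to the ASM pupae: 24 of the 150 members were below their group mean in it, against 124 in replicate 1 and 92 in replicate 2.

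The level on day 3 can also be read against each strain's own course. The day 3 mean lay below the midpoint of the day 1 and day 5 means in 93 members in ESM and in 33 in ASM. The median of the group means over members was 208 normalised counts in ASM and 207 in ESM on day 1. It was 127 in ASM and 54.3 in ESM on day 3, then 26.6 and 20.8 at the low. By day 8 it was 89.0 in ASM and 107 in ESM, and by day 11 173 and 135. These medians were furthest apart on day 3 and close on day 1, but gene by gene 105 of the 150 members had a higher ASM mean on day 1. Of 1153 genes outside the list with a fall of at least 1.03 VST units, a comparison chosen after the calls were seen, 16.4% were called higher in ASM on day 3 and 4.60% lower. Whether their share differs from that of the members was not tested.

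On day 8 the order was the reverse for most members that were called. The comparison called 23 members (15.3%, against 6.36% of all genes tested), 19 of them lower in ASM (12.7%, against 2.82%) and 4 higher (2.67%, against 3.54%). The median difference was −0.53 VST units over the members and 0.0144 over all genes tested, and 43 members had a higher ASM mean. In the 19 lower ones the differences ran from 1.46 to 5.94 VST units in size, and in 18 of them all 3 ASM pupae lay below all 3 ESM pupae. The 18, too, have no count over all called genes beside them. Lda.24093 (-5.48 ± 0.76 VST units, SE, adjusted p = 4.5e-05) and Lda.34041 (-5.94 ± 0.89, adjusted p = 0.000125) led them, and 7 were among the 11 abundant genes. Among the 136 members that dipped in both strains, 16 were called lower and 4 higher. Of the 14 that dipped in 1 strain only, 3 were called (21.4%), all lower in ASM. The rule used the day 8 means too, so these counts are not free of the rule. The 4 higher in ASM were Lda.19693, Lda.28699, Lda.34820 and Lda.4331. The count fell to 10 without ESM replicate 1 of day 8, 11 without ESM replicate 3, 11 without ASM replicate 1 and 13 without ASM replicate 2. Of the 2387 genes outside the list that rose by at least 1.03 VST units from day 5 to day 8, 7.71% were called higher in ASM on day 8 and 5.61% lower.

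**Figure D4:**
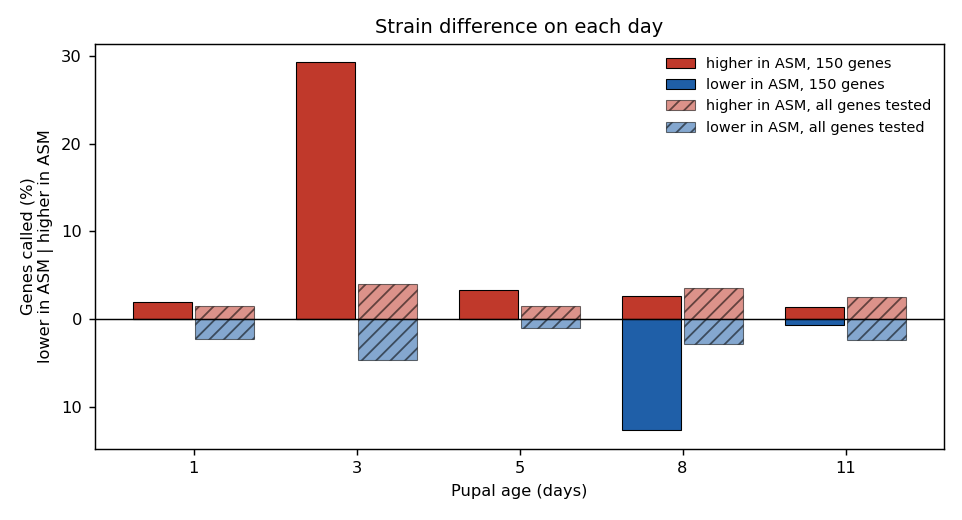
Share of genes called for a strain difference on each day. The horizontal axis is the age of the pupa in days, bars above 0 are the percentage higher in ASM and bars below 0 the percentage lower in ASM. Plain bars are the 150 genes and hatched bars all 19652 genes tested. On day 3, 29.3% of members were called higher in ASM and 0% lower, and on day 8, 12.7% were called lower. The rule used the day means of these days, so the shares of members are not free of the rule.

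The change of the strain difference between these days was tested next, although the rule can favour genes with such a change. The interaction of strain and day, a moderated F test over all 5 days, called 36 members (24%, against 3.65% of all genes tested). It included all 11 abundant genes and 25 of the other 139. The count was 22 without ESM replicate 1 of day 3 and 23 without ESM replicate 2, and 29 of the 136 members that dipped in both strains were called (21.3%). Of the 14 that dipped in 1 strain only, 7 were called (50%). The smallest adjusted p values were those of Lda.34043 (1.73e-07), Lda.9732 (4.95e-07), Lda.24093 (2e-06), Lda.15968 (2.58e-06) and Lda.7523 (0.000557), whose counts are given above. A single contrast, the strain difference of day 3 minus that of day 8, was added after the calls of both days had been seen. It called 48 members (32.0%, against 4.98% of all genes tested), and in all 48 it was the same way round, with ASM relatively higher on day 3 (2.04% of all genes tested were called that way and 2.94% the other way). It called 40 of the 136 members that dipped in both strains (29.4%) and 8 of the 14 that dipped in 1 strain only (57.1%). None of these shares is free of the rule. For Lda.15968 the contrast was 12.74 ± 1.21 VST units (SE, adjusted p = 2.91e-07), and for Lda.24093 it was 11.82 ± 1.08 (adjusted p = 1.63e-07). Of the 36 members of the interaction 32 were also called by this contrast. By sign alone, 93 of the 150 were higher in ASM on day 3 and lower on day 8. Called on both days were 9 members, 8 of them in this order, and Lda.19693 was higher in ASM on both. The shares of all genes tested were not counted for these patterns, so nothing is read from the 93 or the 9.

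**Figure D5:**
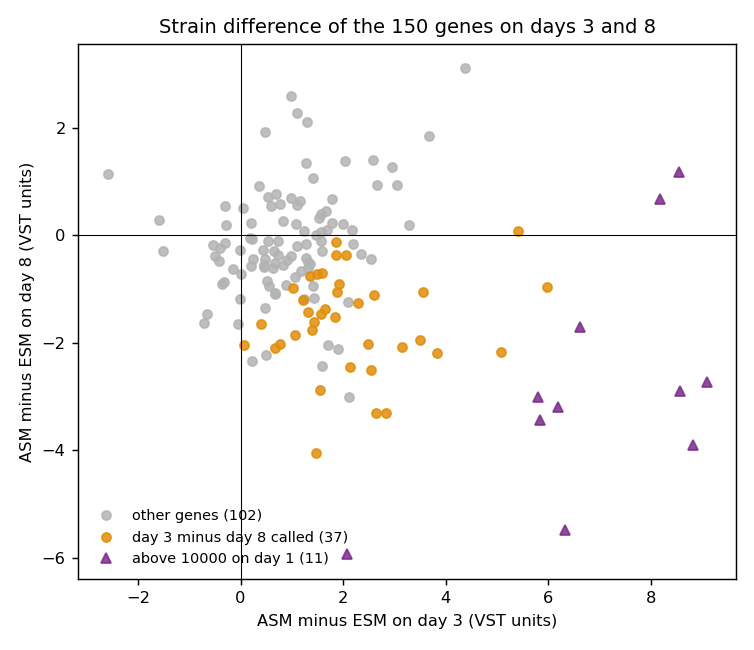
Strain difference of the 150 genes on day 3 (horizontal axis) and on day 8 (vertical axis), each as ASM minus ESM in VST units. Triangles are the 11 members above 10000 normalised counts on day 1, orange points other members called for the difference between the days and grey points the rest. The lower right quadrant, higher in ASM on day 3 and lower on day 8, holds 93 of the 150 genes. The share of all genes in that quadrant was not counted.

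On day 5 itself few members were called. The members were chosen for a low day 5, and 40 of the 150 had a 0 in at least 1 day 5 library. The scale is compressed at such levels, where a doubling added 0.71 VST units from 5 normalised counts and 0.26 from 1. Few calls there therefore do not show that the strains were alike. limma called 5 members, all higher in ASM (3.33%, against 2.48% of all genes tested, 1.44% as higher and 1.04% as lower in ASM), and the median difference was 0.21 VST units. Lda.4331 held 166, 86.5 and 132 in ASM and 47.2, 12.5 and 22.6 in ESM (3.11 ± 0.57 VST units, SE, adjusted p = 0.0028). Lda.34820 held 139, 57.7 and 113 in ASM and 36, 8.32 and 9.03 in ESM (adjusted p = 0.00376). In both genes the ESM pupae were still below the ASM pupae on day 8, with 109, 180.3 and 100.4 in ASM and 42.6, 38 and 40.8 in ESM for Lda.34820. Lda.3885 held 153, 29.8 and 78.3 and 11.2, 6.24 and 19.2 (adjusted p = 0.00543). Lda.19693 held 29.4, 20.9 and 67.5 and 9, 4.16 and 3.39 (adjusted p = 0.0289), and Lda.24469 75, 44.8 and 99.8 and 47.2, 16.6 and 31.6 (adjusted p = 0.0371). The pupae overlapped in Lda.24469 alone. Of the 3 ESM libraries of this day, 2 held under 3000000 reads, and without them 3 members were called: Lda.4331, Lda.34820 and Lda.16815, the last of which was not called with all libraries. None of the 5 was called by voom on the recovered counts, and none when day 5 was fitted alone, where another member was called. The count was 2 without ASM replicate 1 of day 5, 3 without ASM replicate 3, ESM replicate 2 or ESM replicate 3, and 8 without ASM replicate 2 or ESM replicate 1. The calls of Lda.3885, Lda.19693 and Lda.24469 were lost without single libraries, and those of Lda.4331 and Lda.34820 were not. All 5 were among the 136 members that dipped in both strains.

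The depth of the dip was not told apart between the strains. The contrast of day 5 against the mean of the other 4 days, ASM minus ESM, called 0 members by limma and 0 by voom (0.122% of all genes tested by limma). At an unadjusted p under 0.05 it had 16 members, 10.7%, beside 9.97% of all genes tested. Leaving out 1 library gave up to 4 calls, the most without ASM replicate 2 of day 5. This contrast averages days 3 and 8, on which the strain differences had opposite signs. Within the strains the median dip was 1.39 VST units in ASM and 1.18 in ESM.

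Averaged over the 5 days, 45 members were called (30.0%, against 23.4% of all genes tested), 41 higher in ASM (27.3%, against 12.4%) and 4 lower (2.67%, against 10.9%). Of the 136 that dipped in both strains 39 were called, 35 of them higher in ASM. Of the 41, 26 were also called on day 3, so the average partly repeats the day 3 difference. In 17 of the 45 the difference had the same sign on all 5 days. Lda.19693 was the clearest of these, 2.82 ± 0.29 VST units (SE, adjusted p = 1.3e-07). It held 339, 611 and 417 in ASM and 266, 146 and 159 in ESM on day 1, 400.4, 144 and 109.8 and 11.6, 18.9 and 33.2 on day 3, and 62.6, 92.6 and 72.7 and 24.9, 16 and 37.4 on day 11, and the strains did not overlap on any day. Lda.31936 (2.58 ± 0.38, adjusted p = 2.57e-05) held 1325, 703 and 714 in ASM and 141, 83 and 98.5 in ESM on day 1, and overlapped on days 5 and 8. In Lda.6615 and Lda.6616, both at 2.34, the difference was largest on day 3: Lda.6615 held 7144, 2065 and 1823 in ASM and 21.2, 63.7 and 38 in ESM then, and overlapped on days 5 and 11. On day 5 one ASM pupa stood high in this gene, replicate 2 of 56.7, 570.0 and 32.3. Lda.34820 was the fifth (1.89 ± 0.28, adjusted p = 2.82e-05).

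The 4 members lower in ASM over the days differed less. Lda.40343 (-0.99 ± 0.30 VST units, SE, adjusted p = 0.0171) held 170.4, 156 and 134 in ASM and 520.2, 246 and 131 in ESM on day 1. For Lda.29223 (-0.58 ± 0.19, adjusted p = 0.0312) the gap was on day 8, with 175, 161 and 185 in ASM and 522, 324 and 419 in ESM. This call was lost without any 1 of 6 libraries (adjusted p of 0.0509 to 0.06). Lda.23360 (-0.58 ± 0.13, adjusted p = 0.00187) held 249, 248 and 293 in ASM and 545, 446 and 539.9 in ESM on day 8. Its ESM pupae also lay above all ASM pupae on day 3, and on day 11 with 281, 326 and 334 in ASM and 458, 542 and 442 in ESM. Lda.4261 (-0.53 ± 0.19, adjusted p = 0.0422) lost its call in most of the limma fits that left out 1 library. It also lost it by limma on log2(normalised count + 1) (adjusted p = 0.0534). On days 1 and 11 few members were called, although the median ASM minus ESM difference over the members was 0.44 VST units on day 1 (0 over all genes tested) and 0.49 on day 11 (0.0142 over all genes tested). A higher ASM mean was found in 105 members on day 1 and in 91 on day 11. Day 1 called Lda.31936, Lda.40926 and Lda.32412, all higher in ASM (2% of members, against 3.67% of all genes tested, 1.44% as higher and 2.23% as lower in ASM). Day 11 called Lda.27328, Lda.22883 and Lda.6370 (2%, against 4.9%), the first of them lower and the others higher in ASM, beside 2.37% of all genes tested called lower and 2.53% higher.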

How the data were processed

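RNA of single whole female pupae was sequenced from polyadenylated transcripts on an Ion Proton instrument. The authors used Trimmomatic 0.36 for trimming, mapped the reads to their draft ASM assembly, removed iflavirus reads, merged transcript models in StringTie and counted with featureCounts 2.0.0. They then applied the variance-stabilising transformation (DESeq2 1.28.1), and these values on a log2-like scale were deposited for 19654 genes in 30 libraries. Versions are from the submitters' processing notes.

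A count of 0 is the lowest value of the table (−0.516), and each higher count has its own step on a curve that all libraries share. Inverting it gave counts within 0.05 of a whole number for at least 99.9% of values in every library, and 99.996% of simulated counts of 19654 genes were recovered exactly. The lowest steps of each library were taken as consecutive counts, so these are whole by construction. The simulated counts were put on the recovered curve, so they test the inversion and not the curve. Totals over the genes ran from 2638192 to 10786409 reads. Limits from a count of 0 (3 reads per library) cover counting error only. The deposited unit was not a count, so the tests used the transformed values. Their 10 group means (strain and day) were fitted by limma 3.58.1 (R 4.3.3) with trended empirical Bayes variances, and p-values were adjusted over 19652 genes (Benjamini-Hochberg). The study's own DESeq2 tests reported fewer genes for strain and for strain by day, so the calls given here are not its calls. In simulated data of 19654 genes the strain difference over days recovered 64% of genes with a log2 fold of 1 and 97% with a log2 fold of 2, and 8% of its calls were false. Every simulated gene had the same dispersion. Only a small part of the genes was changed between the strains, none of them at the lowest levels. These rates need not hold for the real calls. Python 3.11.15 with numpy 2.4.6, pandas 2.3.3 and matplotlib 3.10.9 served for the rest. Nothing says that pupae of a group were independent beyond being separate animals of 1 colony, so p-values set differences against variation between these pupae only. Each was scaled by 1 variance per gene, pooled over the 10 groups and moderated, and not by the spread on a single day.

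The members, the lists and the tests were chosen with earlier results of these data known. The genes named are the 15 with the largest dip, the described members, the called members with the largest strain difference over days (5 higher in ASM and all 4 lower), the 5 with the smallest adjusted p for the interaction and for day 5, the 3 genes on each side of the threshold and the 4 qPCR reference genes. Others were named after their values were seen, where a count was small or a pattern needed examples. The reference genes and groups of described genes were checked for the dip only. Counts over the members that dipped in both strains were added after seeing the data. Alternatives to the tests are listed in the closing section.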

Additional observations from a re-analysis of the deposited data

Results flagged for a closer look

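The strain difference changed over the days in 36 of the 150 members (24%, against 3.65% of all genes tested), by the interaction test of limma at an adjusted p under 0.05, which is what singles them out. The count was 22 to 47 without single libraries and 29 among the 136 members that dipped in both strains. The rule's day means over both strains can favour such genes, so neither count is free of the rule. The 5 with the smallest adjusted p were Lda.34043 (1.73e-07), Lda.9732 (4.95e-07), Lda.24093 (2e-06), Lda.15968 (2.58e-06) and Lda.7523 (0.000557). In each of these 5 genes all 3 ASM pupae were above all 3 ESM pupae on day 3 and below them on day 8. The genes were picked by the interaction test, and the share of all genes with this order was not counted. Nothing is therefore read from it. The difference between the strain effects of these days, a contrast chosen after both had been seen, was called in 48 members (32.0%, against 4.98% of all genes tested; 33 to 53 without single libraries), all with ASM relatively higher on day 3. The rule can favour this contrast too, so its count is not free of the rule. No cause was tested. Groups of 3 pupae were too small for a test of single libraries that stand apart.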

How the results depend on the processing

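Counts of called members were recomputed under voom on recovered counts, log2(normalised count + 1), libraries shifted to the same median, other filters, no trend in the variance prior, a replicate block and without each library in turn. For the strain difference over days the count was 35 to 56 without single libraries and 35 to 47 under the other planned settings. On day 5 it was 0 by voom, 9 on log2(normalised count + 1), 1 with day 5 fitted alone and 3 without both day 5 ESM libraries under 3000000 reads (chosen after seeing the data), and 2 to 8 without single libraries, against 5. The interaction called 21, and day 8 called 15, when genes had to be above the lowest value in all 30 libraries, where 110 members were tested. Without single libraries the interaction called 22 to 47, day 3 25 to 56, day 8 10 to 30, day 3 minus day 8 33 to 53 and the difference of the dip 0 to 4. The rule kept 90 members on log2(normalised count + 1), 96 with ASM libraries alone, 93 with ESM libraries alone, 110 on counts thinned to the shallowest library and 131 to 150 without single libraries. The median dip of the members was 1.38 to 1.55 VST units without single libraries. The cause of these shifts was not tested beyond the smaller number of genes or samples. Under the replicate block 45 members were called over the days, 6 on day 5 and 39 for the interaction. The replicate numbers are not known to pair pupae: same-numbered pupae of different groups had a median correlation of 0.011 in their deviations, and 14 of 30 libraries correlated best with their own number. Among the named genes, all 5 day 5 calls were lost by voom and by fitting day 5 alone, and Lda.24469 was also lost when all 30 libraries were required. The call of Lda.29223 over the days was lost without several single libraries. That of Lda.4261 was lost without most single libraries and on log2(normalised count + 1). No named gene changed direction.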

Other observations

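The same rule was applied to the other days for comparison. The gene in place 150 dipped by 1.24 VST units on day 1 and by 1.51 on day 11. On days 3 and 8 it dipped by 0.95 and 0.77, beside 1.03 on day 5. As many as 240 genes dipped on day 1 and 323 on day 11 by at least the day 5 threshold, and 130 on day 3 and 89 on day 8. Days 1 and 11 are the ends of the series, so a gene that only rises or only falls can pass the rule there, whereas on day 5 it must fall and rise. Members with an identifier within 5 of another member made up 14.7% of the day 5 list and 10% to 20% of the lists of the other days.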
